A study of Mus musculus with 12 samples.

Results

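Striatal miRNAs of R6/2 mice given an shTRAX adeno-associated virus (AAV) were compared with those of wild type (WT) mice given the same virus. The comparison takes 6 of the 12 libraries of the study, 3 from R6/2 shTRAX striatum and 3 from WT shTRAX striatum, chosen by their labelled genotype and shRNA. It was made with R6/2 shTRAX replicate 3 and again without it, because that library stood apart from the other 11. The R6/2 line, written B6CBA-Tg(HDexon1)62Gpb/3J in the labels, carries exon 1 of the human huntingtin gene with an expanded CAG repeat as a transgene and is used as a model of Huntington's disease. The shTRAX virus carries a short hairpin RNA against TRAX, the translin-associated protein encoded by Tsnax. All mice, WT included, were labelled B6CBAFI/J, received AAV in both striata at 5 weeks of age and were sampled at 10.5 weeks. No library of the comparison is therefore free of the hairpin. The other 6 libraries, 3 R6/2 and 3 WT, received an AAV with a control shRNA, and they were used for the shared estimate of spread and for the genotype difference set beside the shTRAX one. The labels give neither the promoter of the hairpin, nor the cells that take up the virus, nor whether each library is 1 mouse. The p-values therefore cover the spread between the libraries at hand, which may be technical. Tsnax mRNA was not measured in these libraries, and the knockdown was not checked here.

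A miRNA is cut from a hairpin whose arms give a 5p and a 3p strand, and its seed, bases 2 to 8, guides it to messenger RNAs that it represses. TRAX and translin form an RNase complex that acts on small RNAs. The miR-132 and miR-212 locus is a target of the transcription factor CREB that neuronal activity and BDNF induce, and REST represses many neuronal miRNA loci when it is in the nucleus. Lower levels of miR-132 and of other neuronal miRNAs are a known feature of Huntington's disease models. The intron of Sfmbt2 and the Dlk1-Dio3 region hold large imprinted miRNA clusters in the mouse.

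Mature sequences of miRNAs described below are given as RefSeq lists them, on GRCm38.p6, with the seed in capitals. miR-222-3p and miR-125b-5p passed only without replicate 3 and are shown for the seed they share with a member that passed in both fits. They are shown because members of 4 families share a seed and because the miR-344 strands differ in theirs. The first set is the pair from the miR-132 and miR-212 locus, which share AACAGUC.
miR-132-3p: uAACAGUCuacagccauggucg
miR-212-3p: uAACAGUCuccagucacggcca
The second set is the 3p strands of the miR-344 family on chromosome 7, of which miR-344-3p and miR-344c-3p share GAUCUAG.
miR-344-3p: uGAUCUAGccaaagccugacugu
miR-344c-3p: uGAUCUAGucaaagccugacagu
miR-344b-3p: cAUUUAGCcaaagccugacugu
miR-344d-3p: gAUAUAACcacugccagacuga
miR-344h-3p: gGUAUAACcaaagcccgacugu
The third set is the X-linked pair, which share GCUACAU.
miR-221-3p: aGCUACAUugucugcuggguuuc
miR-222-3p: aGCUACAUcuggcuacugggucu
The fourth set is the let-7 strands that passed the test in both fits, and the miR-125 strands encoded with or related to them.
let-7b-5p: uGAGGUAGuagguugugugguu
let-7c-5p: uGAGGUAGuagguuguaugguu
let-7e-5p: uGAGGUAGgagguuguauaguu
let-7f-5p: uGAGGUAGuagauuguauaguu
miR-125a-5p: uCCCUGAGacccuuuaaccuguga
miR-125b-5p: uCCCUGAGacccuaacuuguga

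Levels are given as CPM, counts relative to the library total after scaling by the TMM method of edgeR. Libraries held 13849777 to 16907910 counts on 1915 mature names, and 1033 to 1106 names were detected in each. The library labelled R6/2 shTRAX replicate 3 scored 24.5 on the first principal component, against -5.54 to 0.38 in the other 11. Its log2 level lay more than 1 from the mean of replicates 1 and 2 for 203 of 689 miRNAs, while replicates 1 and 2 lay more than 1 apart for 20. The deviation ran with base composition. Over 564 miRNAs with a known sequence, Spearman's rho between GC content and the log2 ratio of replicate 3 to the others was 0.61, as a description across miRNAs of 1 library. The median ratio was 0.84 on the log2 scale at a GC content of 55% or more and -0.80 under 40%. The genotype fold change under shTRAX followed GC content with a rho of 0.44 over 12 libraries and 0.05 without replicate 3. Under the control AAV this rho was -0.21 and -0.22. The deviation of a library from the mean of all libraries had a rho with GC content of -0.36 to 0.09 in the other 11. These libraries enter the shared fit as well.

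**Figure D1:**
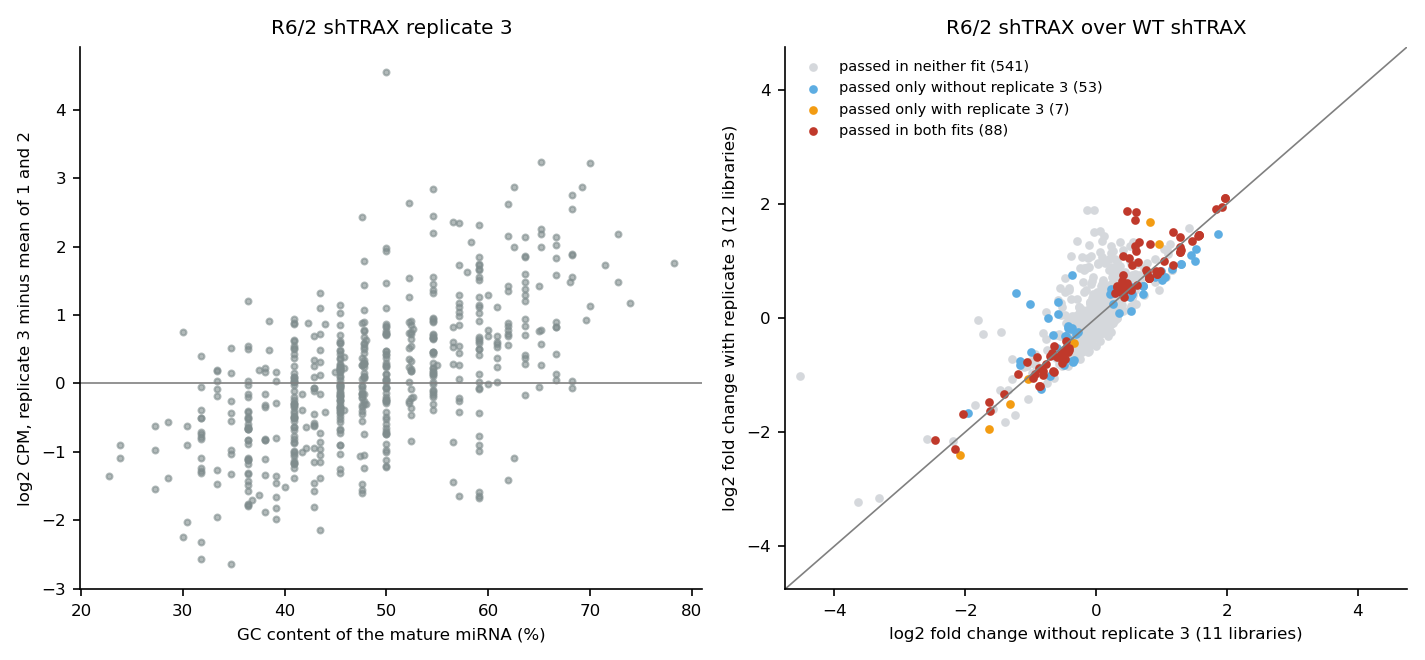
Left, log2 CPM of R6/2 shTRAX replicate 3 minus the mean of replicates 1 and 2 against the GC content of the mature miRNA in percent, 1 point for each of 564 miRNAs; points rise to the right. Right, log2 fold change of R6/2 shTRAX over WT shTRAX with replicate 3 against that without it, coloured by the fits in which the miRNA passed the test; the 88 that passed in both lie on 1 side of 0 on both axes.

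With all 12 libraries in the fit, 95 of 689 tested miRNAs (13.8%) passed the test between R6/2 shTRAX and WT shTRAX, 55 higher (7.98%) and 40 lower (5.81%) in R6/2. Passing means a Benjamini-Hochberg adjusted p under 0.05 in edgeR's quasi-likelihood test. Without replicate 3, 141 of 700 (20.1%) passed, 79 higher (11.3%) and 62 lower (8.86%). These shares of all tested miRNAs are the background for the counts of each list below. The fits shared 88 miRNAs, 53 higher and 35 lower, which is 92.6% of the first list and 62.4% of the second. All 95 had the same sign without replicate 3, and 7 of them did not pass there. Scaling by library totals moved the median of all tested miRNAs by 0.11 on the log2 scale and gave 35 higher and 45 lower, against 55 and 40 under TMM. The shared spread of the 4 groups mattered to these counts: fitted alone, the 6 libraries gave 2 passing miRNAs, miR-669c-5p (higher) and miR-212-3p (lower), and the 5 libraries without replicate 3 gave 41. In the fit over 12 libraries, leaving out WT shTRAX replicate 1, 2 or 3 gave 51, 38 or 40, and without R6/2 shTRAX replicate 3, leaving out R6/2 shTRAX replicate 1 or 2 gave 51 or 60.

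The miR-132 and miR-212 locus lies within an intron of 1700016P03Rik on chromosome 11 (hairpins at chr11:75173388-75173478 and chr11:75173682-75173747, GRCm38, plus strand). All 4 of its mature strands were lower in R6/2 in both fits, with a median log2 fold change of -1.40 over 12 libraries and -1.51 without replicate 3, against 0.04 and 0.01 over all tested miRNAs. miR-132-3p, which represses p250GAP and other regulators of neuronal morphology, had 1258, 1185 and 1654 CPM in the R6/2 shTRAX libraries, against 4898, 3038 and 3475 CPM in the WT shTRAX libraries. The groups did not overlap, which was so for 30.5% of 689 tested miRNAs, and WT replicate 1 was the highest. Replicates 1 and 2 alone did not overlap with WT for 46% of 700. The log2 fold change was -1.48 ± 0.19 (SE, adjusted p = 0.00079), and -1.63 ± 0.17 without replicate 3 (adjusted p = 0.00016). miR-212-3p, with the same seed, had 53.4, 50.1 and 51.6 CPM in R6/2 shTRAX against 184, 139 and 155 CPM in WT shTRAX. Every R6/2 library lay far below every WT library, and replicate 3 sat between the other R6/2 libraries. Its log2 fold change was -1.62 ± 0.13 with an adjusted p of 2.2e-05. With miR-669c-5p, it was 1 of only 2 named miRNAs that passed under every alternative that could be fitted for them over 12 libraries. GC offsets could be fitted for miR-212-3p but not for miR-669c-5p, for which no sequence was at hand.

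The other arms of both hairpins followed. miR-132-5p had 371, 340 and 422 CPM in R6/2 shTRAX against 1239, 755 and 848 CPM in WT shTRAX, and miR-212-5p had 61.0, 55.6 and 87.6 CPM against 183, 102 and 116 CPM. Neither pair of groups overlapped. The log2 fold changes were -1.33 ± 0.19 (adjusted p = 0.0021) and -0.97 ± 0.24 (adjusted p = 0.026). The miR-212-5p call was lost without WT shTRAX replicate 1, the highest library, at an adjusted p of 0.055.

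**Figure D2:**
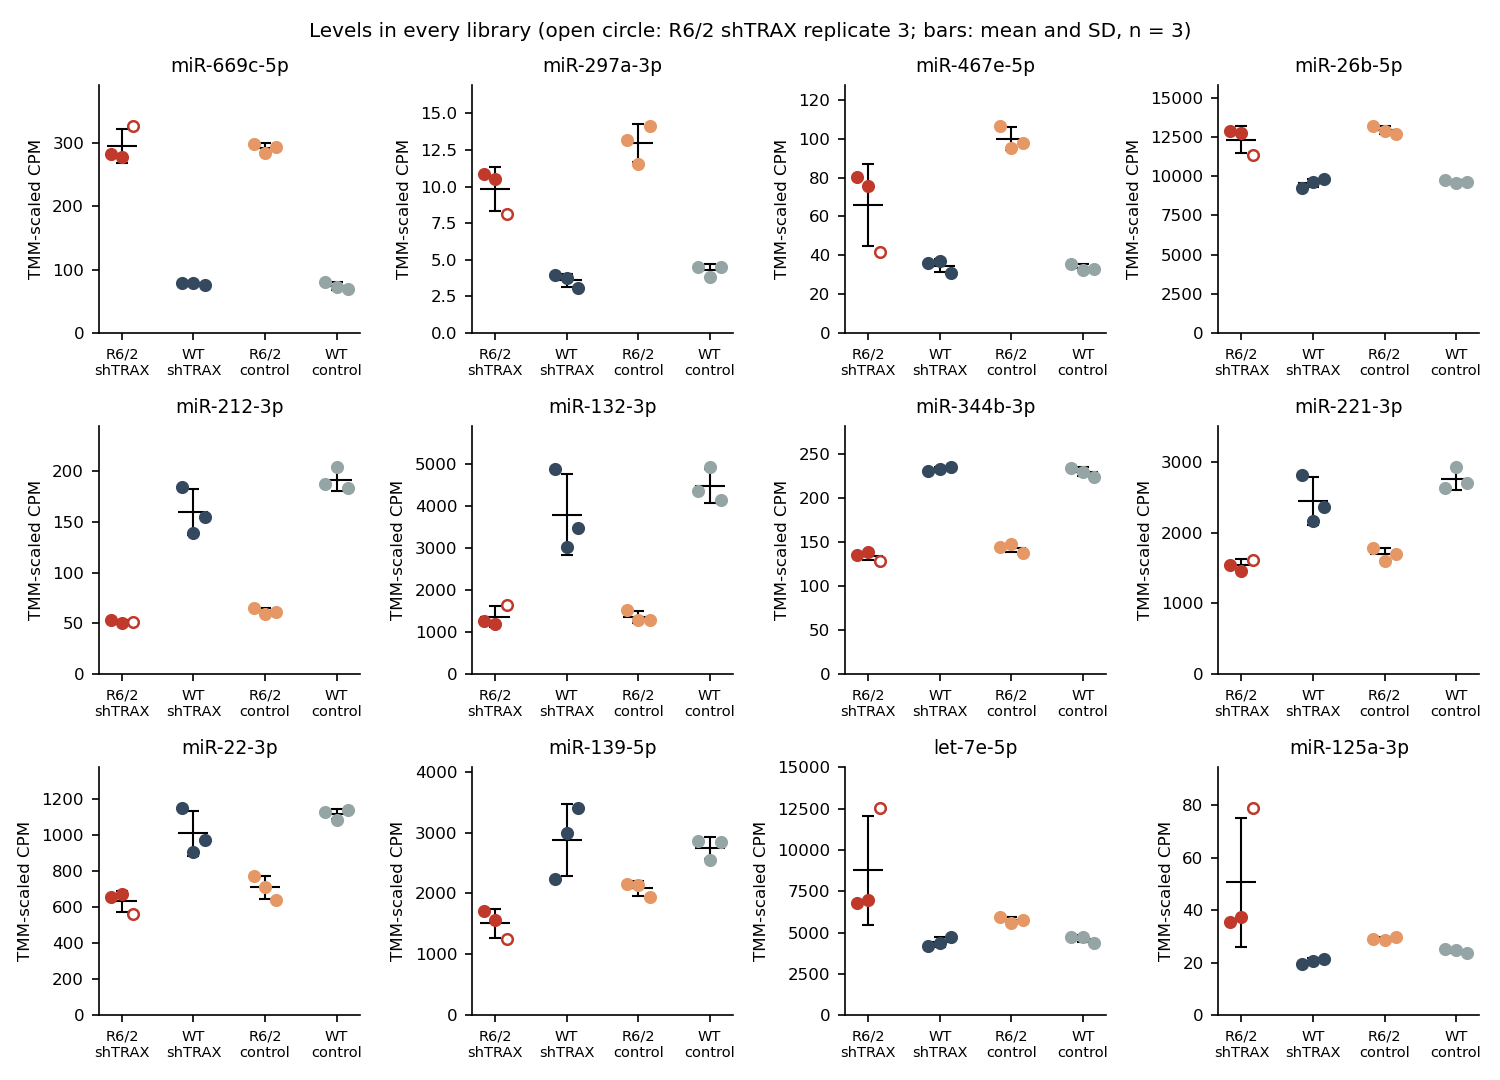
TMM-scaled CPM of 12 miRNAs in every library, by group, with the axis from 0; bars are mean and SD of 3 libraries and the open circle is R6/2 shTRAX replicate 3. R6/2 shTRAX libraries lie above all WT shTRAX libraries for miR-669c-5p, miR-297a-3p, miR-467e-5p, miR-26b-5p, let-7e-5p and miR-125a-3p and below them for the other 6, and replicate 3 lies well above the other R6/2 shTRAX libraries for let-7e-5p and miR-125a-3p and well below them for miR-467e-5p.

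The Sfmbt2 intron cluster gave the largest group of higher miRNAs. This cluster on chromosome 2 is found in rodents only and is expressed from the paternal allele, and its hairpins are near-copies of each other. Of 69 mature names placed inside Sfmbt2, 49 were tested over 12 libraries, and 24 were higher and 0 lower in R6/2. Without replicate 3, 36 of 50 were higher and 0 lower. The median log2 fold change was 0.83 and 1.04. Summed over the 69 names, the cluster had 910, 878 and 777 CPM in R6/2 shTRAX against 464, 404 and 358 CPM in WT shTRAX. Names of the cluster cannot all be told apart: miR-297a-3p, miR-297b-3p and miR-297c-3p had identical counts, as had miR-467a-3p and miR-467d-3p, and most of the 15 names whose counts lay within 5% of those of another in every library belong here. They are repeated readings of fewer signals.

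miR-669c-5p (chr2:10509296-10509404) led the cluster and all miRNAs by p. It had 281, 277 and 326 CPM in R6/2 shTRAX against 79.4, 79.4 and 75.8 CPM in WT shTRAX. The R6/2 libraries, replicate 3 included, stood several-fold above every WT library. The log2 fold change was 1.92 ± 0.12 (adjusted p = 2.7e-06), and 1.84 ± 0.09 without replicate 3 (adjusted p = 5.0e-07).

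The miR-297 signal was lower in level and moved alike. miR-297a-3p had 10.9, 10.5 and 8.14 CPM in R6/2 shTRAX against 3.96, 3.74 and 3.08 CPM in WT shTRAX, a log2 fold change of 1.45 ± 0.18 (adjusted p = 0.00077). miR-467a-5p and miR-467b-5p read the same to within a few counts, at 25.1, 23.1 and 17.7 CPM in R6/2 shTRAX against 8.74, 11 and 9.90 CPM in WT shTRAX, with a log2 fold change of 1.15 ± 0.18 (adjusted p = 0.0025). In both, replicate 3 was the lowest R6/2 library and still above all WT libraries.

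Replicate 3 weighed more on other members. miR-467e-5p had 80.4, 75.7 and 41.9 CPM in R6/2 shTRAX against 35.9, 37.3 and 30.8 CPM in WT shTRAX, so replicate 3 lay just above the WT libraries. The log2 fold change was 0.93 ± 0.21 with it (adjusted p = 0.020) and 1.17 ± 0.11 without it (adjusted p = 9.3e-05). The call over 12 libraries was lost without R6/2 shTRAX replicate 2 or any 1 of the WT shTRAX libraries, up to an adjusted p of 0.078. miR-466d-3p had 37.2, 34.7 and 29.8 CPM in R6/2 shTRAX against 22.5, 17.7 and 17.2 CPM in WT shTRAX. Its groups did not overlap, and it passed at 0.83 ± 0.14 (adjusted p = 0.0056).

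By family within the cluster, 3 of 6 tested miR-297, 10 of 17 miR-466, 8 of 9 miR-467 and 3 of 17 miR-669 names were higher over 12 libraries. Without replicate 3 the counts were 4 of 6, 13 of 18, 8 of 9 and 11 of 17. Further members that passed were miR-669h-5p, with 2.75, 2.57 and 2.79 CPM in R6/2 shTRAX against 0.829, 0.485 and 0.771 CPM in WT shTRAX (log2 fold change 1.94 ± 0.27, adjusted p = 0.0013), and miR-467c-5p, with 21.1, 20.6 and 16.4 CPM against 9.95, 9.07 and 6.49 CPM (1.18 ± 0.20, adjusted p = 0.0056). The number of cluster members that passed over 12 libraries was 16, 11 or 10 without WT shTRAX replicate 1, 2 or 3, and 1 with the compared groups only. In the fit without R6/2 shTRAX replicate 3, it was 16 or 22 without R6/2 shTRAX replicate 1 or 2, 21 without WT shTRAX replicate 3 and 14 with the compared groups only. The median over 12 libraries stayed between 0.67 and 0.92 without any 1 library of the comparison other than R6/2 shTRAX replicate 3.

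**Figure D3:**
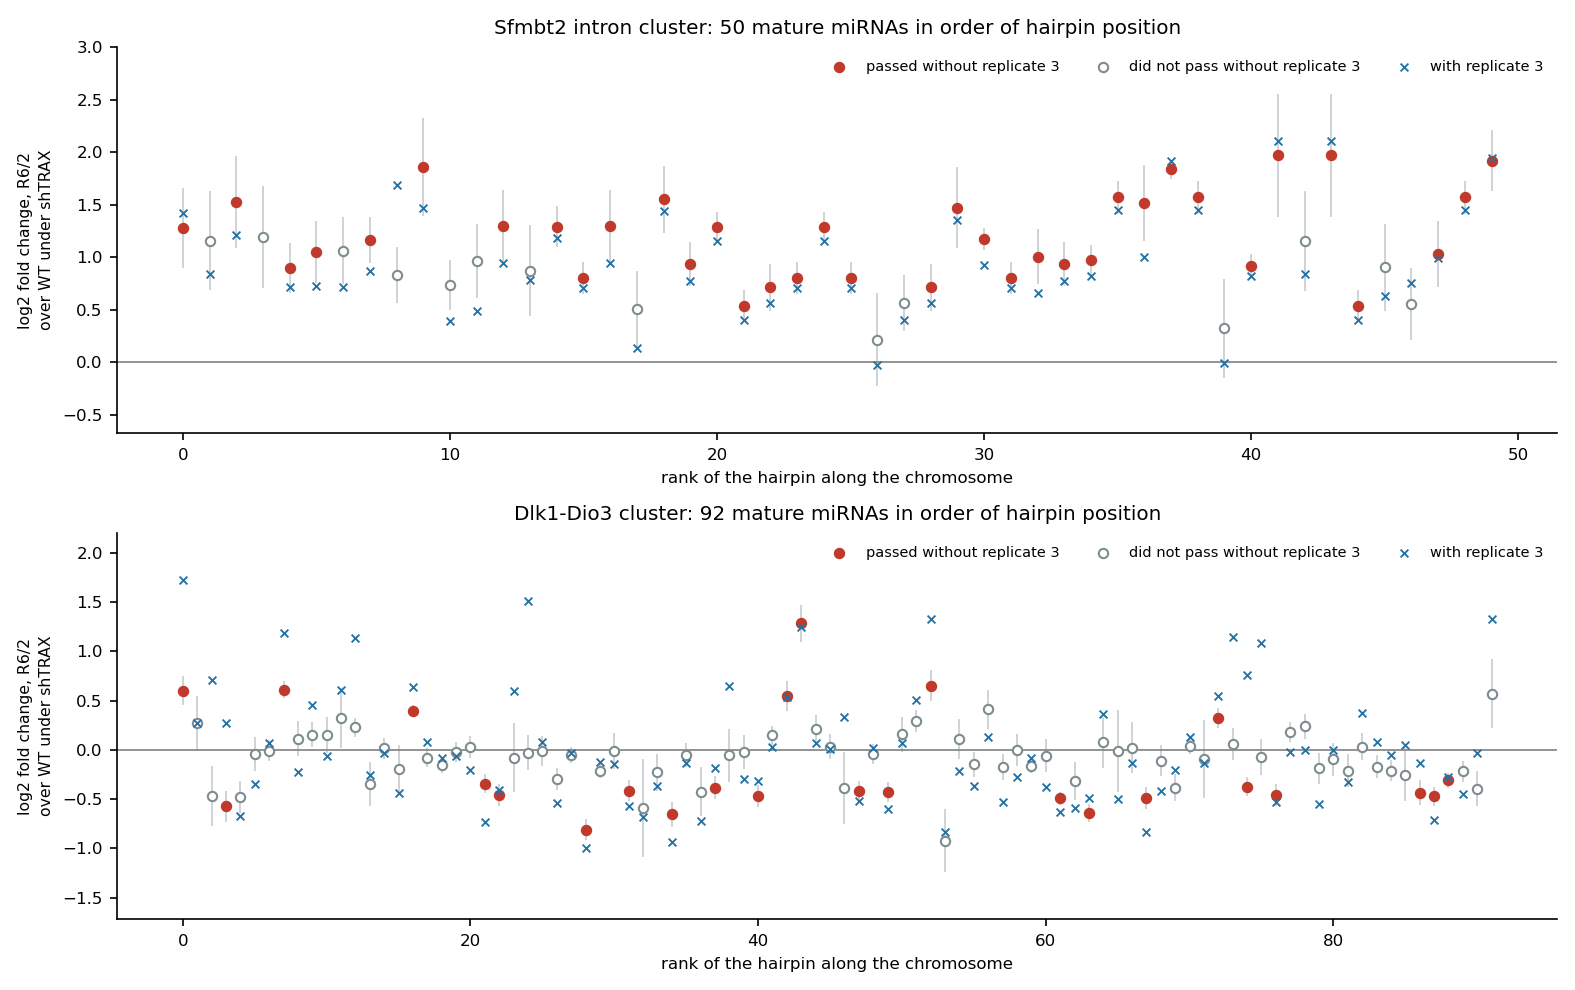
Log2 fold change of R6/2 shTRAX over WT shTRAX for tested miRNAs of the Sfmbt2 intron cluster (top, 50) and the Dlk1-Dio3 cluster (bottom, 92), ordered by hairpin along the chromosome; circles with SE are the fit without replicate 3, filled where the test was passed, and crosses the fit with it. All 50 circles of the first cluster lie above 0, while the second holds 7 filled circles above 0 and 18 below.

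Several neuronal miRNAs were lower in R6/2. Of the miR-344 family, rodent miRNAs with brain expression, 13 strands were listed, 8 were tested, and 6 were lower and 0 higher in both fits. The family's median log2 fold change was -0.99, and -0.88 without replicate 3. The 6 became 4 without WT shTRAX replicate 2 or 3 and 0 with the compared groups only. In the fit without R6/2 shTRAX replicate 3 they became 3 or 4 without R6/2 shTRAX replicate 1 or 2. The hairpins of the 6 lower members lie within chr7:61683124-61982359, on the minus strand. miR-344b-3p (chr7:61790519-61790581, intron of A230057D06Rik) had 135, 138 and 129 CPM in R6/2 shTRAX against 231, 232 and 235 CPM in WT shTRAX. The libraries of each group were tightly placed and far from the other group. The log2 fold change was -0.80 ± 0.10 (adjusted p = 0.00077), and -0.77 ± 0.08 without replicate 3.

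miR-344-3p had 708, 709 and 576 CPM in R6/2 shTRAX against 1181, 929 and 966 CPM in WT shTRAX (log2 fold change -0.63 ± 0.13, adjusted p = 0.015). miR-344d-3p had 121, 131 and 190 CPM against 256, 228 and 224 CPM (-0.68 ± 0.16, adjusted p = 0.023). For neither did the groups overlap, and replicate 3 was the lowest R6/2 library for the first and the highest for the second. miR-344c-3p, which shares the seed of miR-344-3p, had 14.5, 13.8 and 5.35 CPM in R6/2 shTRAX against 23.5, 25.8 and 27.2 CPM in WT shTRAX. Its log2 fold change was -1.18 ± 0.30 with replicate 3 (adjusted p = 0.026) and -0.85 ± 0.13 without it (adjusted p = 0.0013), and the call over 12 libraries was lost without any 1 WT shTRAX library. miR-344h-3p was near the lower limit of measurement, at 0.217, 0.208 and 0.155 CPM in R6/2 shTRAX against 0.893, 0.762 and 1.29 CPM in WT shTRAX.

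The X-linked miR-221 and miR-222 locus, whose miRNAs repress the cell cycle inhibitor p27, had 2 of 4 strands lower over 12 libraries and 3 of 4 without replicate 3, and 0 higher. miR-221-3p (chrX:19146294-19146388) had 1549, 1460 and 1619 CPM in R6/2 shTRAX against 2825, 2161 and 2359 CPM in WT shTRAX, with no overlap. The log2 fold change was -0.67 ± 0.12 (adjusted p = 0.0057). miR-222-3p, with the same seed, had 379, 376 and 542 CPM in R6/2 shTRAX against 536, 441 and 486 CPM in WT shTRAX. Replicate 3 lay above every WT library there, and the miRNA passed only without it (-0.37 ± 0.09, adjusted p = 0.018, against -0.17 ± 0.15, adjusted p = 0.45). That call was lost without R6/2 shTRAX replicate 1 or 2 or any 1 WT control library. The other arm, miR-222-5p, had 11.1, 13.1 and 12.9 CPM in R6/2 shTRAX against 19.8, 19.1 and 19.1 CPM in WT shTRAX, with no overlap and an adjusted p of 0.018.

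miR-22-3p, a broadly expressed miRNA encoded in an exon of Mir22hg on chromosome 11, had 658, 675 and 563 CPM in R6/2 shTRAX against 1152, 909 and 972 CPM in WT shTRAX. All R6/2 libraries lay below all WT libraries, and the log2 fold change was -0.68 ± 0.13 (adjusted p = 0.0084). miR-139-5p, encoded in an intron of Pde2a, had 1704, 1565 and 1251 CPM in R6/2 shTRAX against 2240, 2998 and 3408 CPM in WT shTRAX. These groups did not overlap either, and the log2 fold change was -0.94 ± 0.16 (adjusted p = 0.0056) with replicate 3 and -0.82 ± 0.15 without it.

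Of 9 miRNAs listed as lower in Huntington mouse models in published profiling, 3 were lower over 12 libraries (miR-132-3p, miR-22-3p and miR-344-3p) and 4 without replicate 3, when miR-222-3p joined them. None was higher, and the median log2 fold change was -0.43 and -0.33. Of 15 miRNAs listed as REST-repressed, 7 were lower and 0 higher in both fits, with a median of -0.68 and -0.43. Those 7 were the 4 strands of the miR-132 and miR-212 locus, miR-124-3p, miR-135b-5p and miR-139-5p. The 7 became 4 over 12 libraries without WT shTRAX replicate 1 and 1 with the compared groups only. In the fit without R6/2 shTRAX replicate 3 they became 4 without R6/2 shTRAX replicate 2 and 3 with the compared groups only, and the median was -0.26 without WT shTRAX replicate 2. With GC offsets, 12 members could be fitted over 12 libraries and 5 were lower, with a median of -0.33. The lists overlap, and each was chosen with earlier results of these data known.

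Other neuron-enriched miRNAs did not move one way. Of 20 tested, 1 was higher and 2 lower in each fit, and the median was -0.02 and -0.14. Of all tested miRNAs, 13.8% passed over 12 libraries and 20.1% without replicate 3. miR-124-3p, the most studied neuronal miRNA, had 4192, 4040 and 3006 CPM in R6/2 shTRAX against 7546, 4959 and 5537 CPM in WT shTRAX. The groups did not overlap, the log2 fold change was -0.68 ± 0.18 (adjusted p = 0.033), and the call was lost without WT shTRAX replicate 1 or 3 or WT control replicate 2. Without R6/2 shTRAX replicate 3 it was -0.54 (adjusted p = 0.031). That call was lost without WT shTRAX replicate 1 or 3, R6/2 control replicate 2 or 3 or any 1 WT control library. Fits that leave 1 R6/2 shTRAX library are not counted here. With the compared groups only, miR-124-3p passed in neither fit. miR-129-1-3p had 34.5, 30.2 and 36.2 CPM in R6/2 shTRAX against 56.8, 46.2 and 51.3 CPM in WT shTRAX (-0.61 ± 0.14, adjusted p = 0.020). The higher one, miR-127-3p from the Dlk1-Dio3 region, had 14817, 15103 and 23466 CPM in R6/2 shTRAX against 11024, 11087 and 12088 CPM in WT shTRAX. Replicate 3 was far above the other R6/2 libraries there, and the log2 fold change was 0.64 ± 0.15 with it and 0.39 ± 0.06 without it (adjusted p = 0.023 and 0.0011). The call over 12 libraries was lost without WT shTRAX replicate 1 or 2.

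**Figure D4:**
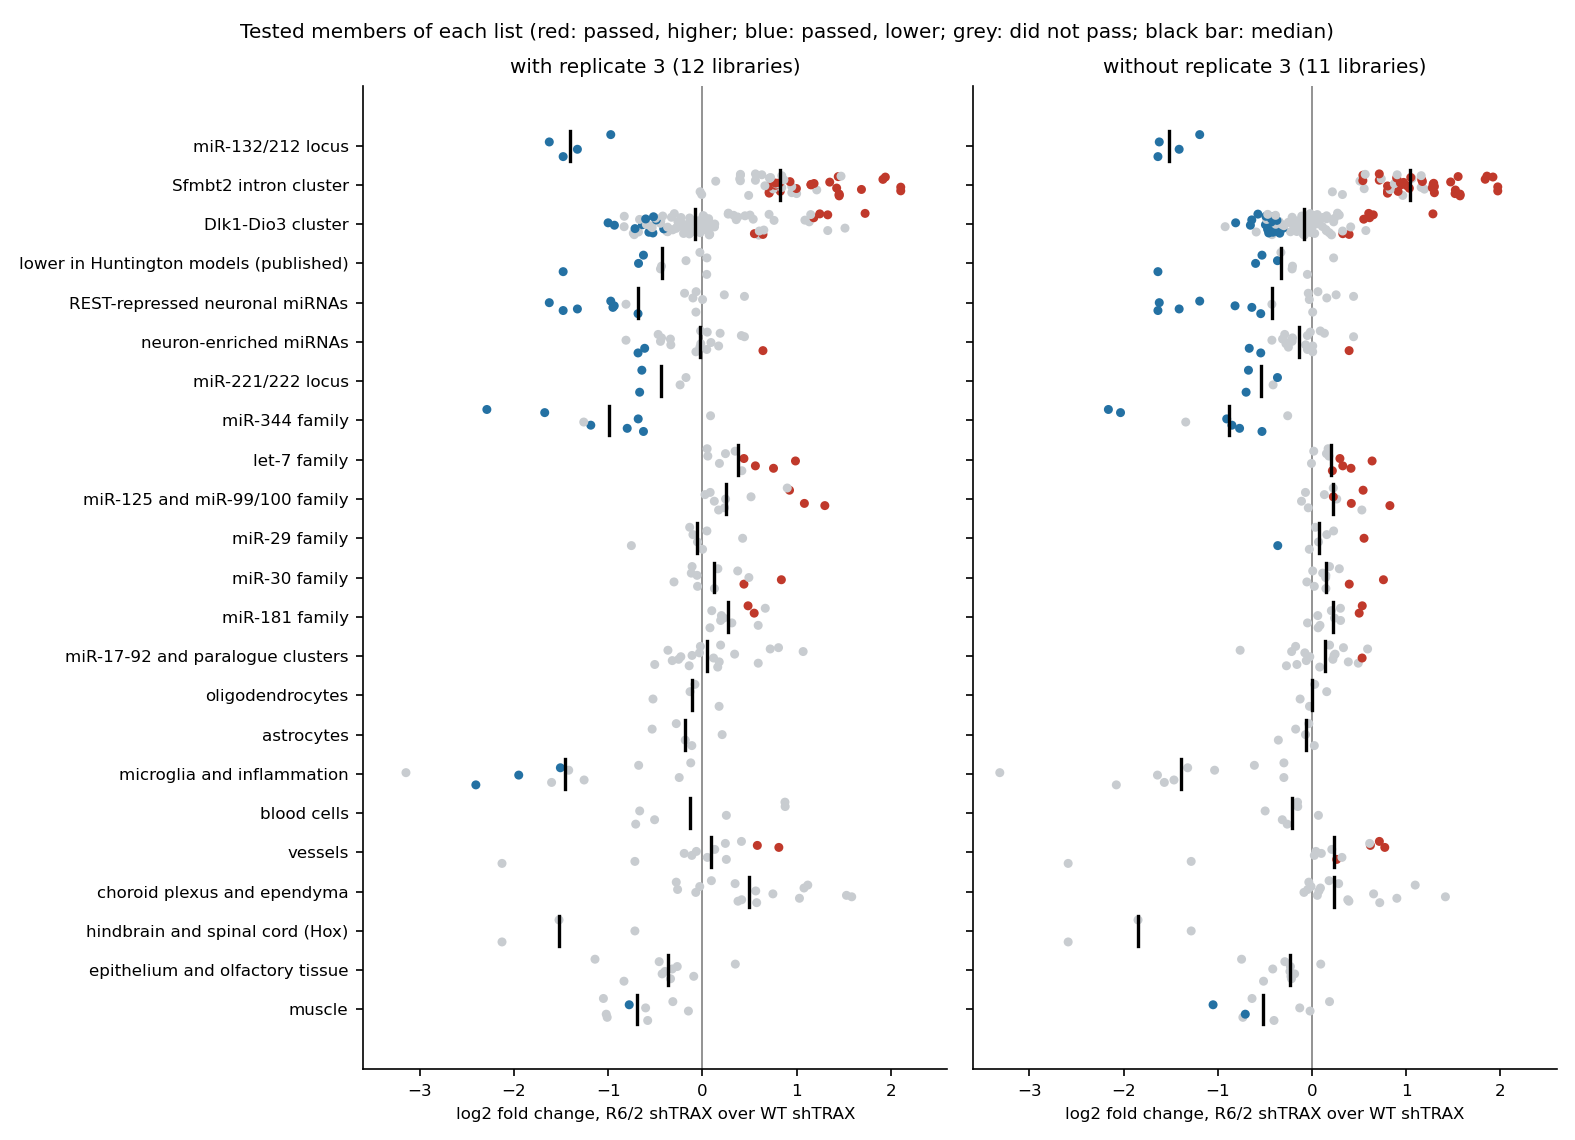
Log2 fold change of R6/2 shTRAX over WT shTRAX for the tested members of 23 lists, with replicate 3 (left) and without it (right); red and blue points passed the test as higher or lower, grey points did not, and black bars are medians. Members of the miR-132 and miR-212 locus all lie below -0.9 in both panels and those of the Sfmbt2 cluster mostly above 0, while let-7 members shift toward 0 without replicate 3.

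The Dlk1-Dio3 cluster on chromosome 12, maternally expressed in brain, held both directions. Of 114 mature names placed between Mir770 and Mir3072, 92 were tested, and 6 were higher and 10 lower over 12 libraries, where 7.98% of all tested miRNAs were higher and 5.81% lower. Without replicate 3, 7 were higher and 18 lower, against 11.3% and 8.86% of all tested. The median log2 fold change was -0.08 in both fits, and the summed level was 61017, 60701 and 68142 CPM in R6/2 shTRAX against 57111, 60321 and 65469 CPM in WT shTRAX, groups that overlapped. The stretch from mir-379 to mir-3072 held 9 of the lower miRNAs and 3 of the higher over 12 libraries, and 15 lower and 4 higher without replicate 3. The stretch from mir-770 to mir-136 held 3 higher and 0 lower over 12 libraries, and 3 higher and 2 lower without replicate 3. The cluster's counts over 12 libraries were 1 higher and 4 lower without WT shTRAX replicate 1, 1 and 3 without replicate 2 and 2 and 2 without replicate 3. In the fit without R6/2 shTRAX replicate 3, leaving out R6/2 shTRAX replicate 1 or 2 gave 3 higher and 3 lower each time, leaving out WT shTRAX replicate 3 gave 6 and 9, and the compared groups alone gave 3 and 3.

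Among the lower members, miR-411-3p (chr12:109710175-109710256) had 27.8, 27.2 and 17.4 CPM in R6/2 shTRAX against 49.0, 46.7 and 49.3 CPM in WT shTRAX. The groups did not overlap, with a log2 fold change of -1.0 ± 0.18 (adjusted p = 0.0070) and -0.81 ± 0.10 without replicate 3. miR-381-3p had 2211, 2176 and 1582 CPM in R6/2 shTRAX against 3204, 3038 and 3033 CPM in WT shTRAX (-0.64 ± 0.13, adjusted p = 0.013, and -0.49 ± 0.07 without replicate 3). miR-487b-3p had 216, 236 and 301 CPM against 374, 325 and 358 CPM (-0.49 ± 0.14, adjusted p = 0.038). Replicate 3 lay below the other R6/2 libraries for the first pair and above them for miR-487b-3p, whose call was lost without either other R6/2 shTRAX library, any 1 WT shTRAX library or WT control replicate 2.

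Among the higher members, miR-679-5p (chr12:109715577-109715650) was even across libraries, with 14.3, 13.8 and 12.9 CPM in R6/2 shTRAX against 4.27, 6.58 and 6.43 CPM in WT shTRAX. Its log2 fold change was 1.25 ± 0.19 (adjusted p = 0.0025), and 1.28 ± 0.19 without replicate 3. miR-540-3p had 81.7, 77.3 and 196 CPM in R6/2 shTRAX against 54.3, 48.1 and 54.0 CPM in WT shTRAX. Replicate 3 was far above the other R6/2 libraries, and the log2 fold change was 1.18 ± 0.30 with it and 0.61 ± 0.09 without it (adjusted p = 0.027 and 0.0010). The call with it was lost without any 1 WT shTRAX library.

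The let-7 family, which restrains growth and stem cell programmes and is abundant in mature brain, was higher for 4 of 10 strands over 12 libraries and for 5 of 10 without replicate 3, and lower for 0. Its median log2 fold change was 0.38 with replicate 3 and 0.20 without it. let-7e-5p had 6771, 6964 and 12549 CPM in R6/2 shTRAX against 4162, 4340 and 4754 CPM in WT shTRAX. All R6/2 libraries lay above all WT libraries, but replicate 3 was far above the other R6/2 ones. The log2 fold change was 0.99 ± 0.20 with it (adjusted p = 0.013) and 0.64 ± 0.07 without it (adjusted p = 0.00016).

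let-7b-5p had 10542, 10773 and 19214 CPM in R6/2 shTRAX against 8054, 7845 and 8125 CPM in WT shTRAX, and the log2 fold change was 0.75 ± 0.19 (adjusted p = 0.028) and, without replicate 3, 0.41 ± 0.05 (adjusted p = 0.00041). let-7c-5p, its neighbour on chromosome 15, had 32924, 33705 and 51161 CPM against 26876, 26016 and 26881 CPM, a log2 fold change of 0.56 ± 0.14 (adjusted p = 0.030) and 0.33 ± 0.05 without replicate 3. let-7f-5p had 53631, 52890 and 70232 CPM against 41646, 43029 and 45571 CPM, and passed at 0.44 ± 0.11 (adjusted p = 0.025) and 0.30 ± 0.05. In all of these, replicates 1 and 2 agreed closely, lay above WT, and lay well below replicate 3. Over 12 libraries the let-7b-5p and let-7c-5p calls were lost without any 1 WT shTRAX library and the let-7f-5p call without WT shTRAX replicate 1 or 2, which left 1, 1 or 2 let-7 calls without WT shTRAX replicate 1, 2 or 3.

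let-7e is encoded with miR-99b and miR-125a within Spaca6 on chromosome 17 (chr17:17830188-17830879, plus strand), and 4 of the 6 strands of these hairpins were higher in both fits. miR-125a-3p had 35.3, 37.5 and 78.9 CPM in R6/2 shTRAX against 19.4, 20.7 and 21.5 CPM in WT shTRAX (1.30 ± 0.26, adjusted p = 0.013, and 0.83 ± 0.09, adjusted p = 0.00021, without replicate 3). miR-125a-5p, a regulator of inflammatory signalling and of synaptic mRNAs, had 17301, 17231 and 47677 CPM against 12365, 12818 and 13646 CPM. miR-99b-3p had 56.9, 57.1 and 109 CPM against 39.5, 36.8 and 41.3 CPM. In each, all R6/2 libraries were above all WT ones and replicate 3 was far above the others. The miR-99b-3p call over 12 libraries was lost without any 1 WT shTRAX library. The fold of miR-125a-5p was 1.08 ± 0.32 on the log2 scale with replicate 3 (adjusted p = 0.045) and 0.42 ± 0.06 without it (adjusted p = 0.0010), and it passed over 12 libraries in only 3 of the 12 fits that left out 1 library. Of the 11 listed miR-125 and miR-99/100 strands, 3 were higher with replicate 3 and 4 without it. The fourth, miR-125b-5p, had 69361, 72081 and 118070 CPM in R6/2 shTRAX against 56975, 61410 and 63093 CPM in WT shTRAX (0.23 ± 0.06 without replicate 3, adjusted p = 0.029). That call was lost under RLE scaling, with no filter on low counts, with DESeq2, with limma on log2(RPM + 1), with the compared groups only and without R6/2 shTRAX replicate 1 or 2.

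Fewer members of the other families passed. Of all tested miRNAs, 7.98% were higher over 12 libraries and 11.3% without replicate 3. The miR-181 family had 2 of 10 strands higher in both fits: miR-181c-3p, with 73.8, 71.3 and 80.2 CPM in R6/2 shTRAX against 51.0, 52.1 and 50.8 CPM in WT shTRAX (0.55 ± 0.11, adjusted p = 0.012), and miR-181d-5p, with 135, 148 and 128 CPM against 108, 98.4 and 87.9 CPM (0.48 ± 0.13, adjusted p = 0.037). Neither pair of groups overlapped. Over 12 libraries the miR-181c-3p call held in all 12 fits that left out 1 library. It was lost with no filter on low counts, with GC offsets and with the compared groups only. The miR-181d-5p call was lost in 9 of the 12 fits that left out 1 library. It was also lost under total-count scaling, with no filter on low counts and with limma on log2(RPM + 1). Summing precursor rows, the replicate block and the compared groups only lost it as well. The miR-30 family had 2 of 11 higher in both fits, among them miR-30c-1-3p, with 22.6, 22.2 and 26.4 CPM in R6/2 shTRAX against 10.8, 13.3 and 15.7 CPM in WT shTRAX (0.84 ± 0.18, adjusted p = 0.015). The other, miR-30b-3p, had 22.3, 24.9 and 25.9 CPM against 16.5, 20.2 and 17.3 CPM (0.44 ± 0.13, adjusted p = 0.047), passed over 12 libraries in 1 of the 12 fits that left out 1 library, and did not pass in either fit under RLE or total-count scaling. The miR-29 family had 0 of 7 over 12 libraries and, without replicate 3, miR-29b-2-5p higher (0.55 ± 0.11, adjusted p = 0.0064) and miR-29a-5p lower (-0.36 ± 0.09, adjusted p = 0.022). Both calls were lost with the compared groups only. The miR-29a-5p call was also lost with no filter on low counts and without WT shTRAX replicate 3 or any 1 WT control library. For both calls, fits that leave 1 R6/2 shTRAX library are not counted here. The miR-17-92 cluster and its paralogues had 0 of 18, and 1 without replicate 3, miR-19b-3p. That miRNA had 490, 438 and 117 CPM in R6/2 shTRAX against 277, 351 and 334 CPM in WT shTRAX: replicate 3 lay below every WT library and the other R6/2 libraries lay above them.

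Outside the lists, miR-26b-5p, encoded in an intron of Ctdsp1 on chromosome 1, had 12873, 12745 and 11326 CPM in R6/2 shTRAX against 9258, 9610 and 9816 CPM in WT shTRAX. The groups did not overlap, with replicate 3 the lowest R6/2 library, and the log2 fold change was 0.37 ± 0.08 (adjusted p = 0.020) and 0.42 ± 0.05 without replicate 3 (adjusted p = 0.00041). The call over 12 libraries was lost without R6/2 shTRAX replicate 1 or 2 or any 1 WT shTRAX library. X-linked miR-325-3p had 8.70, 8.34 and 3.33 CPM in R6/2 shTRAX against 17.3, 15.4 and 13.9 CPM in WT shTRAX (-1.19 ± 0.29, adjusted p = 0.023, and -0.87 ± 0.14 without replicate 3). Its call over 12 libraries was lost without any 1 WT shTRAX library. Chosen after its values were seen, miR-328-3p shows the reach of replicate 3: it had 317, 315 and 1859 CPM in R6/2 shTRAX against 208, 229 and 244 CPM in WT shTRAX, and its log2 fold change was 1.87 ± 0.56 with replicate 3 and 0.48 ± 0.12 without it.

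Near the threshold, miR-467d-3p was just inside it over 12 libraries (adjusted p = 0.049) and miR-133b-3p just outside (adjusted p = 0.052). Without replicate 3, miR-466q, which lies in Tnik and not in the Sfmbt2 cluster, was just inside (adjusted p = 0.049), with 0.870, 0.556 and 1.24 CPM in R6/2 shTRAX against 2.74, 1.73 and 3.92 CPM in WT shTRAX. Just outside was miR-378b, with 14.3, 11 and 15.5 CPM against 26.6, 16.3 and 18.1 CPM.

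The arms of a hairpin had the same sign where both passed, and less often elsewhere. Over 12 libraries both arms passed for 9 of 234 hairpins with both arms tested, and the sign was the same in all 9. Without replicate 3 it was 18 of 236, again all with the same sign. The 9 included mir-132, mir-212, mir-22, mir-125a and mir-195a and 4 hairpins of the Sfmbt2 cluster. Of 60 hairpins with at least 1 arm passing over 12 libraries, 44 had arms of the same sign, as had 155 of all 234. Without replicate 3 these were 71 of 86 and 171 of 236. By seed, both members with AACAGUC (miR-132-3p and miR-212-3p) and both with GAUCUAG (miR-344-3p and miR-344c-3p) were lower in both fits, while of 10 strands with GAGGUAG, the let-7 seed, 4 and 5 were higher.

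Markers of cells other than neurons were read in the same libraries, where fewer cells of a type and less RNA per cell cannot be told apart. Of 12 listed miRNAs of microglia and inflammation 10 were tested, and 3 of them were lower over 12 libraries. The other 7 did not pass, though all 10 log2 fold changes were below 0, with a median of -1.46. Their summed level was 5275, 6860 and 5659 CPM in R6/2 shTRAX against 29501, 11316 and 7852 CPM in WT shTRAX, so the groups did not overlap and WT shTRAX replicate 1 stood highest. miR-142a-3p, which is specific to blood-derived cells and microglia, had 498, 683 and 232 CPM in R6/2 shTRAX against 4706, 1814 and 962 CPM in WT shTRAX (-2.40 ± 0.65, adjusted p = 0.035). miR-21a-5p, induced in reactive glia, had 2498, 2643 and 1646 CPM against 11440, 4375 and 3476 CPM (-1.51 ± 0.43, adjusted p = 0.038), and miR-147-3p, induced by Toll-like receptor signals, had 1.45, 1.25 and 0.543 CPM against 5.93, 4.22 and 2.51 CPM (-1.95 ± 0.55, adjusted p = 0.039). None of the 10 passed without replicate 3, where the median was -1.39, and none passed over 12 libraries without WT shTRAX replicate 1 or 2, where the median was -0.82 or -1.60. None of the 12 was at 0 summed over the libraries of either group, and the part of these cells in the other results was not tested.

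Vessel miRNAs were higher for 2 of 12 over 12 libraries and 4 of 12 without replicate 3, and lower for 0. The shares higher among all tested miRNAs were 7.98% and 11.3%. miR-195a-5p had 582, 593 and 546 CPM in R6/2 shTRAX against 420, 348 and 382 CPM in WT shTRAX (0.58 ± 0.13, adjusted p = 0.018), and its other arm miR-195a-3p had 11.4, 12.1 and 12.7 CPM against 6.0, 7.55 and 7.07 CPM (0.81 ± 0.16, adjusted p = 0.012). Both pairs of groups were apart. Endothelial miR-126a-3p had 21971, 23242 and 22287 CPM against 17440, 18805 and 20359 CPM and passed only without replicate 3 (0.26 ± 0.07, adjusted p = 0.025). miR-497a-5p, from the same locus as miR-195a, had 430, 423 and 186 CPM against 205, 289 and 285 CPM and also passed only without replicate 3 (0.72 ± 0.14, adjusted p = 0.0057). With the compared groups only, the miR-126a-3p and miR-497a-5p calls were lost. That of miR-126a-3p was also lost with no filter on low counts. For these calls too, fits that leave 1 R6/2 shTRAX library are not counted. The summed level of the 12 vessel miRNAs was 37328, 39313 and 31867 CPM in R6/2 shTRAX against 29611, 32841 and 34763 CPM in WT shTRAX, and the groups overlapped.

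Of 8 tested muscle miRNAs, 1 was lower over 12 libraries and 2 without replicate 3, against 5.81% and 8.86% of all tested. miR-206-3p had 51.6, 60.1 and 91.3 CPM in R6/2 shTRAX against 104, 100 and 143 CPM in WT shTRAX (-0.78 ± 0.22, adjusted p = 0.037, and -1.05 ± 0.16, adjusted p = 0.0011, without replicate 3), and miR-133b-3p from the same locus had 8.70, 8.69 and 3.64 CPM against 14.7, 10.4 and 17.6 CPM. Neither pair of groups overlapped. The miR-206-3p call over 12 libraries was lost without R6/2 shTRAX replicate 1 or 2 or WT shTRAX replicate 2 or 3. It was also lost with the compared groups only, with the replicate block and with GC offsets. The miR-133b-3p call held in 2 of the 11 fits that left out 1 more library. It was lost with the compared groups only, with the replicate block and with GC offsets. No listed miRNA of oligodendrocytes (4 tested), astrocytes (5), blood cells (6), choroid plexus and ependyma (16), Hox clusters (3) or epithelium (10) passed in either fit.

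Among the markers that did not pass, oligodendrocyte miR-338-3p had 8797, 8752 and 4006 CPM in R6/2 shTRAX against 7246, 8924 and 7437 CPM in WT shTRAX, and replicate 3 alone was low. The choroid plexus list summed to 5733, 6321 and 6828 CPM in R6/2 shTRAX against 6136, 3915 and 2294 CPM in WT shTRAX, which overlapped and varied most within WT. Hox cluster miRNAs, absent from forebrain neurons, summed to 6.52, 6.81 and 14.8 CPM against 83.3, 11 and 6.94 CPM, and WT shTRAX replicate 1, the library highest in microglial miRNAs, was again the highest.

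The same genotype difference under the control AAV, which shares no library with the shTRAX comparison but shares its estimate of spread, passed for 73 of 689 (10.6%) over 12 libraries, 50 higher (7.26%) and 23 lower (3.34%). Scaling by library totals gave 44 higher and 39 lower. In the fit without R6/2 shTRAX replicate 3 it passed for 210 of 700 (30%), 120 higher (17.1%) and 90 lower (12.9%). Of the 95 shTRAX calls, 42 passed under the control AAV as well, which is 44.2% of the 95 and 57.5% of the 73, and 92 of the 95 had the same sign. Without replicate 3 the shared number was 109, 77.3% of 141 and 51.9% of 210. Across 700 miRNAs, fold changes under the AAVs had Pearson's r of 0.69 without replicate 3, and across 689 miRNAs it was 0.44 with it, both descriptions across miRNAs that share the fit. A total of 42 miRNAs, 27 higher and 15 lower, passed under both AAVs with and without replicate 3.

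The members leading by p in each direction, miR-669c-5p and miR-212-3p, had like values under both AAVs. miR-669c-5p had 298, 283 and 293 CPM in R6/2 control libraries against 80.6, 71.8 and 69.8 CPM in WT control libraries, and miR-212-3p had 65.1, 59.1 and 61.2 CPM against 187, 204 and 183 CPM. Both groups stood as far apart as under shTRAX, with log2 fold changes of 1.98 and -1.63. All 4 strands of the miR-132 and miR-212 locus were lower under the control AAV too, with a median of -1.50. The Sfmbt2 cluster summed to 1070, 1023 and 1048 CPM in R6/2 control against 420, 389 and 409 CPM in WT control. Of its members, 37 of 49 were higher over 12 libraries (median 1.38), against 24 of 49 (median 0.83) under shTRAX. Without R6/2 shTRAX replicate 3, 45 of 50 were higher (median 1.38), against 36 of 50 (median 1.04) under shTRAX.

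**Figure D5:**
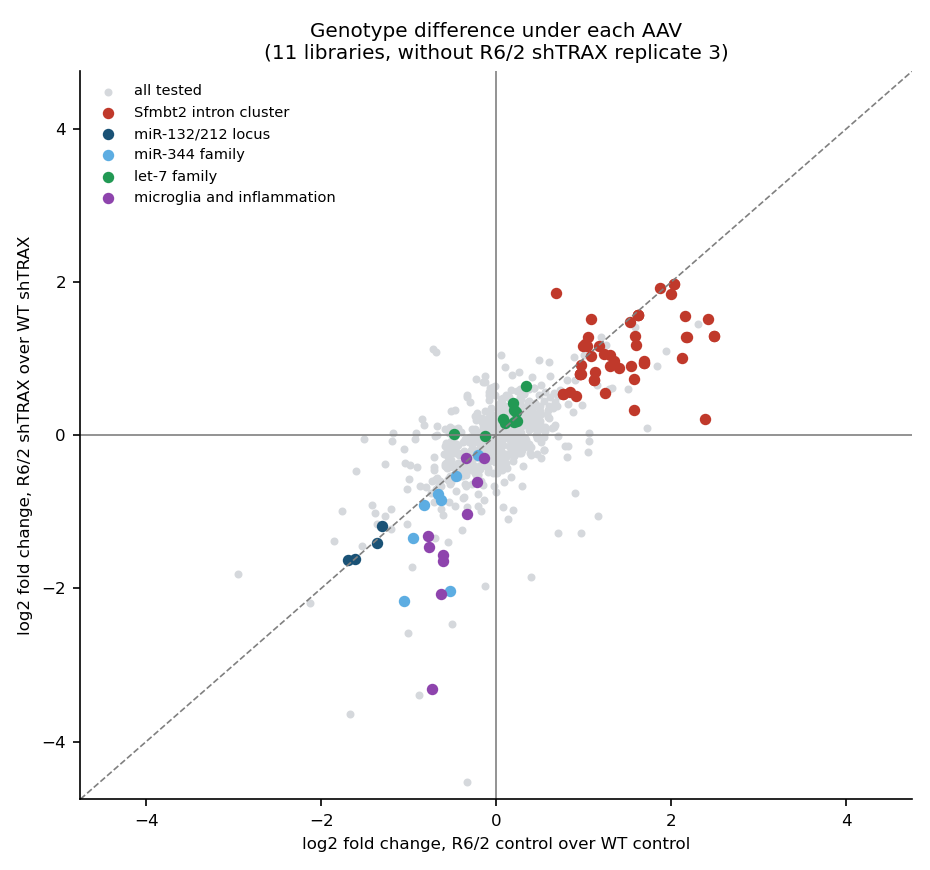
Log2 fold change of R6/2 over WT under the shTRAX AAV (vertical) against that under the control AAV (horizontal), without R6/2 shTRAX replicate 3, for 700 miRNAs, with members of 5 lists coloured and the line of equal change dashed. The 4 miR-132 and miR-212 points lie near the line, and 43 of 50 Sfmbt2 points and 9 of 10 microglia and inflammation points lie below it.

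The difference between the genotype differences, tested as an interaction in edgeR, passed for 0 of 689 miRNAs over 12 libraries and 0 of 700 without replicate 3. An unadjusted p under 0.05 was reached by 61 and 69, the smallest adjusted p was 0.46 and 0.19, and DESeq2 passed 2 and 5. Without R6/2 shTRAX replicate 3 and WT shTRAX replicate 1 together, 51 passed. The smallest unadjusted p was that of miR-467a-5p over 12 libraries and of miR-125a-3p without replicate 3. miR-467b-5p had 32.6, 33.3 and 29.3 CPM in R6/2 control against 6.69, 6.41 and 8.30 CPM in WT control, so its groups lay further apart than under shTRAX, and the shTRAX genotype difference was smaller by 0.88 ± 0.20 on the log2 scale without replicate 3 (unadjusted p = 0.0013, adjusted p = 0.19).

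Values of other miRNAs with small p for this difference follow, and none passed. miR-466c-5p had 0.435, 1.04 and 0.388 CPM in R6/2 shTRAX against 0.447, 0.970 and 0.514 CPM in WT shTRAX, while it had 1.69, 2.12 and 1.72 CPM in R6/2 control against 0.403, 0.327 and 0.314 CPM in WT control (adjusted p = 0.46 over 12 libraries). In that miRNA only the control AAV groups were apart. miR-125a-3p had 28.8, 28.6 and 29.8 CPM in R6/2 control against 25.3, 24.9 and 23.5 CPM in WT control, and the shTRAX genotype difference was larger by 0.56 ± 0.13 without replicate 3 (adjusted p = 0.19). miR-136-5p, from the Dlk1-Dio3 region, had 1036, 978 and 290 CPM in R6/2 shTRAX against 1220, 1338 and 1274 CPM in WT shTRAX, and 1401, 1196 and 1131 CPM in R6/2 control against 1074, 1122 and 1104 CPM in WT control (adjusted p = 0.19 without replicate 3). Its control groups were apart in the other direction.

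By list, 43 of 50 Sfmbt2 members had a smaller genotype difference under shTRAX than under the control AAV without replicate 3, with a median difference of -0.27, against 393 of 700 and a median of -0.05 over all tested miRNAs. Over 12 libraries it was 42 of 49. None of these members passed alone, and many repeat the same signal. The microglia and inflammation list had 9 of 10 below 0, with a median of -0.70 and 0 passing.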

How the data were processed

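Small RNA of mouse striatum was sequenced from QIAseq miRNA libraries with molecular identifiers, per the labels' protocols, which name TRIzol or miRNeasy for extraction and do not say which for each sample. The deposited count tables hold the authors' whole-number counts per precursor and mature miRNA, and the deposited RPM columns hold the authors' own depth-scaled values beside them. The submitters' processing notes name bcl2fastq 2.20, Trimmomatic and GRCm38. For the aligner, the counter and the use of the identifiers: not given in the sources used here.

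Of 2059 rows, 1 was kept for each of 1915 mature names, the precursor with the highest mean, since 81 names are listed under several precursors. Counts were tested with edgeR 4.0.16 (R 4.3.3) by its quasi-likelihood test with TMM scaling, filterByExpr at a minimum count of 10 and Benjamini-Hochberg adjustment over all tested miRNAs. The fit held 4 groups of 3 libraries, or 11 libraries without R6/2 shTRAX replicate 3, so the groups share 1 estimate of spread. The SE of a log2 fold change was derived from that test, as its absolute value divided by the square root of the F statistic. It therefore adds nothing to the unadjusted p. DESeq2 1.42.0, limma 3.58.1 and other scalings, filters, joins, GC offsets, a replicate block and leaving out each library were alternatives, and the pipeline was tested on simulated data with 200 changed miRNAs. Named miRNAs are up to 12 in each direction by p, up to 4 in each list, up to 5 for the difference between AAVs and up to 2 that did not pass in marker lists. The members and lists were chosen with earlier results of these data known. Positions are from GENCODE M21 or RefSeq on GRCm38. Libraries held 23462111 to 28589763 counts over all rows. These totals bear on counting error and not on the other limits given above.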

Additional observations from a re-analysis of the deposited data

How the results depend on the processing

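The 95 miRNAs that passed over 12 libraries became 180 with limma voom and library weights, 59 with a replicate block, 59 of the 564 with a sequence under GC offsets and 2 with the compared groups only, and 38 to 141 when 1 library was left out. GC offsets could be fitted for 61 of the 95, of which 47 passed, and for 0 members of the Sfmbt2 cluster. The 141 without R6/2 shTRAX replicate 3 became 41 with the compared groups only and 87 of 573 with GC offsets, and 51 to 167 when 1 more library was left out. The replicate block gave 105 there. Whether replicate numbers pair the samples is not known. Same-numbered R6/2 and WT shTRAX libraries deviated from their group means with r of -0.32, 0.28 and -0.02. Under the control AAV these were 0.13, -0.11 and 0.14. Deviations within so small a group depend on each other, so these values cannot decide it. Under the control AAV, 73 became 46 with no filter on low counts, 263 with voom, 232 with the compared groups only and 38 with GC offsets, and 40 to 210 when 1 library was left out. The difference between AAVs, 0 in both fits, gave 2 with DESeq2 and 2 with voom over 12 libraries, and 5 with DESeq2 and 8 with voom without replicate 3. It stayed at 0 over 12 libraries when 1 was left out and ran from 0 to 51 without replicate 3. miR-19b-3p, at 0.12 on the log2 scale over 12 libraries, was -0.22 with limma on log2(RPM + 1) and ran from -0.22 to 0.53 when 1 library was left out. Of 52 named miRNAs that passed over 12 libraries, 29 passed without any 1 library and all 52 kept their sign under the alternatives tried. Of 59 without replicate 3, 37 passed without any 1 further library and all 59 kept their sign. The causes of these changes were not tested.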
